A study of Mus musculus with 6 samples.

Results

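The nuclear genes of the oxidative phosphorylation machinery were examined in the thymus of mice that lack KAP1 in T cells. They were taken by symbol from the array annotation, as all probes whose gene symbol begins with Nduf, with Sdh and a letter from a to d, with Uqcr, with Cox4 to Cox8 or with Atp5. This gave 91 of the 19057 named genes on the array, through 142 of its 45281 probes. Lymphocytes were released mechanically from the thymus of 3 KO mice, of genotype CD4-Cre/Kap1flox, and of 3 WT littermates described as wt/Kap1flox, all C57/bl6-129sv and 8 to 12 weeks old. KAP1, the protein of Trim28, silences genes and transposable elements at sites where KRAB zinc finger proteins recruit it. The controls thus carry a floxed allele too. CD4-Cre acts from the stage of thymocyte development at which CD4 is first made, so that earlier thymocytes and cells of other lineages keep the gene. No sort or gate is named, each array stands for 1 animal, and the sources used here do not say whether a control carried Cre. Replicates are numbered as in the labels, KO 1 to 3 and WT 4 to 6.

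Oxidative phosphorylation couples the passage of electrons from nutrients to oxygen to the making of ATP in the inner membrane of mitochondria. Complex I takes electrons from NADH and complex II takes them from succinate, complex III passes them to cytochrome c, complex IV hands them to oxygen, and complex V, the ATP synthase, uses the proton gradient so built. Most subunits are encoded in the nucleus and imported, and a small set of core subunits is encoded in mitochondrial DNA, so that the supply of each kind has to be matched. Cells of the T lineage are known to use it alongside glycolysis. The promoters of many of the nuclear genes are known to hold sites for NRF1, for GABP (a factor of the ETS family) and for YY1.

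The promoters are shown for the letters of respiratory gene regulators that they hold. RefSeq windows of build GRCm38.p6, from 250 bases before to 50 bases after a gene's start, were at hand for 76 of the 91 genes, as 81 windows. Shown here is, in each complex, the first gene, in order of its unadjusted p between KO and WT, that held a searched motif, among those of the 4 genes described with all values that had a window. In complex IV none of those with a window did. Capitals mark CCGGAAG (ETS), GCGCATGCG (NRF1) and AAGATGGCG (YY1), on either strand, and looser forms that were also searched are not marked. The windows are written in the direction of transcription. The window of Ndufs3 lies at chr2:90904672-90904971 on the minus strand, that of Sdhaf3 at chr6:6955768-6956067 on the plus strand, that of Uqcrh at chr4:116075021-116075320 on the minus strand and that of Atp5k at chr5:108434350-108434649 on the minus strand.
Ndufs3: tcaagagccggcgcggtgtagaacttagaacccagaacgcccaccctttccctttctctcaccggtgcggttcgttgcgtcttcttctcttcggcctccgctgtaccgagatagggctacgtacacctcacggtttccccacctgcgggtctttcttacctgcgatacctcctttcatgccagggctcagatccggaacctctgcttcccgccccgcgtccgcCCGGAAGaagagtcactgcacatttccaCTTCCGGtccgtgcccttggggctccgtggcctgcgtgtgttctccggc
Sdhaf3: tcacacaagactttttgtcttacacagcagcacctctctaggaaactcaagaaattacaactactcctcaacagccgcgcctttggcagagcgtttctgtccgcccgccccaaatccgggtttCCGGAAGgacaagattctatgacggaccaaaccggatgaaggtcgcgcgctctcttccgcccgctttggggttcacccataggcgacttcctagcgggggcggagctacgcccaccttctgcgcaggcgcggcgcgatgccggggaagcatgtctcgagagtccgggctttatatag
Uqcrh: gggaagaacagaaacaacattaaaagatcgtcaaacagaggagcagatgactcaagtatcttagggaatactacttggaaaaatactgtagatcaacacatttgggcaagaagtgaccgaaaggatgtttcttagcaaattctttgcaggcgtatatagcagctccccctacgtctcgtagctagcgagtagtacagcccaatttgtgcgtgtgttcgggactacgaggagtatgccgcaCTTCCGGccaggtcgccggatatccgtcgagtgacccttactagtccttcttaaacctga
Atp5k: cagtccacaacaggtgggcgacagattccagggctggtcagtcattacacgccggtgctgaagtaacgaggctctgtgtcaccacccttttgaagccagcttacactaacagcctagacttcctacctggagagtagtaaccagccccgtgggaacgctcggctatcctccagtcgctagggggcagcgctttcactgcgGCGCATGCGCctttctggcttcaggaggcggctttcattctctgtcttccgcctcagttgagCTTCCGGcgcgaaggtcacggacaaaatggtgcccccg

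The ETS letters CCGGAAG stood at positions -27 and 2 of the Ndufs3 window, counted from the first transcribed base, the second of them on the opposite strand. They stood at -127 in Sdhaf3, at -10 on the opposite strand in Uqcrh, and at 13 on the opposite strand in Atp5k. The Atp5k window also held the NRF1 letters GCGCATGCG, at -50. These letters nearly read the same on both strands, so that an overlapping match was found from -49 on the opposite strand, and each window was counted once. Among the 81 member windows, 25.9% held the ETS letters on either strand, against 8.86% of all 32851 windows. The NRF1 letters were in 12.3% of member windows, against 1.75% of all. The YY1 letters AAGATGGCG were in 9.88%, against 1.4%, and the letters TCAAGGTCA of the estrogen-related receptors in 2.47%, against 0.423%. The longer palindromic form of the NRF1 motif was in 8.64% of member windows and in 0.971% of all. The member windows had a median GC content of 58.7%, against 52.7% over all windows, and the part of base composition in these shares was not tested. The ETS letters were in 5 of 7 complex II genes and in 6 of 38 complex I genes with a window. The YY1 letters were in 6 complex I genes and 2 complex V genes, and in no window of complexes II, III or IV. Whether a gene held a motif was also set beside the array on which its level was highest, for the 72 tested genes with a window. KO replicate 2 was highest for 18 of 21 genes with the ETS letters and 46 of 51 without, for 10 of 10 with the NRF1 letters and 54 of 62 without, and for 8 of 8 with the YY1 letters and 56 of 64 without. It was thus highest in most genes with and without each motif.

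RNA was read on Illumina bead arrays, which give 1 signal per probe and a detection p-value. Signals were corrected for background, quantile normalized and put on a log2 scale, and all levels and differences below are on that scale, as KO minus WT. A probe was tested where its detection p was under 0.01 on at least 3 of the 6 arrays. On each array 30.9% to 33.5% of all probes were detected, with mean signals from 340.1 to 678.5 before normalization. Trim28 itself had a log2 level of 10.83, 11.01 and 10.23 in KO and of 12.39, 12.25 and 12.59 in WT. Its difference was -1.72 ± 0.26 (SE, n = 3 each), with all KO arrays below all WT arrays and an adjusted p of 0.23 in limma's moderated test. That adjusted p ran from 0.0308, with a robust prior that follows intensity, to 1 over the other settings tried. Where its probe lies relative to the floxed exons is not stated. Of the thymocyte markers, 10 of 11 on the array were tested, the Cd8a probe was not detected, and the normalized signal summed over the list was 107110 to 120130 in KO and 110100 to 112560 in WT. Of 10 macrophage and dendritic cell markers on the array, 7 were tested and all of these were higher in KO, while Adgre1 and Itgax were not detected. The normalized signal summed over the list was 7371.6, 13247 and 8060.1 in KO and 5476.2, 4031.5 and 5315.1 in WT. The 7 tested proliferation markers were all lower in KO, and the list summed to 10816 to 15513 in KO and to 19014 to 22078 in WT. The 6 tested neutrophil markers were also all lower in KO, and that list of 7 summed to 2586.9, 3029.4 and 845.18 in KO and to 4204.4, 2200.7 and 1630.7 in WT. Of 5 B cell markers on the array, 2 were tested and both were higher in KO, while Cd22, Ms4a1 and Pax5 were not detected. The B cell sums were 754.67, 1270.7 and 1091.8 in KO and 778.63, 648.43 and 543.48 in WT.

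No tested oxidative phosphorylation gene was called different between KO and WT in limma's test, at an adjusted or an unadjusted p under 0.05. Of the 142 member probes, 116 were tested, for 83 genes, and 113 of them were detected on all 6 arrays. Of the tested probes, 0 passed an adjusted p of 0.05 in limma's test over all 14651 tested probes, where 0.0273% passed. At an unadjusted p under 0.05 the member count was also 0, against 3.54% of all tested probes, and the smallest unadjusted p among members was 0.104 in limma's test. The KO and WT values did not overlap for 2 member probes with KO higher, where 4.48% of all tested probes were so, and for 0 with KO lower, where 3.16% were so. A difference of at least 0.3 in size was seen in 12 member probes, or 10.3%, against 26.2% of all tested probes. Taking each gene by its most intense tested probe, the median difference was 0.06 over the 83 genes and -0.01 over 8200 tested genes. It was positive in 54 member genes and negative in 29. The median standard error of a member gene's difference was 0.25, and the 95% interval lay within 1 log2 unit on either side of 0 for 71 of the 83 genes. In tissue RNA, fewer cells of a type and less RNA per cell cannot be told apart.

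The count of genes with a positive difference depended on which arrays were used. It was 65.1% of member genes with all 6 arrays, 18.1% without KO replicate 2, 90.4% without KO replicate 3 and 37.3% without WT replicate 6. Scaling by the median in place of quantiles gave 78.3%, and limma's array weights gave 21.7%. The second header line of the deposited table gives each array a number of unstated meaning, by which KO 3 and WT 6 stand apart from the other 4 arrays. The median difference was 0.11 within those 4 arrays and -0.05 between KO 3 and WT 6. Each part of this split holds as many KO as WT arrays. Taken as a block it therefore cannot change a difference, and the median stayed at 0.06. With pairs of 1 KO and 1 WT array of neighbouring numbers as a block, 2 probes in all passed the adjusted p of 0.05 in limma's test, against 4 without the block, and 0 of them were members in either fit. The levels on single arrays varied together across the members, as follows.

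**Figure D1:**
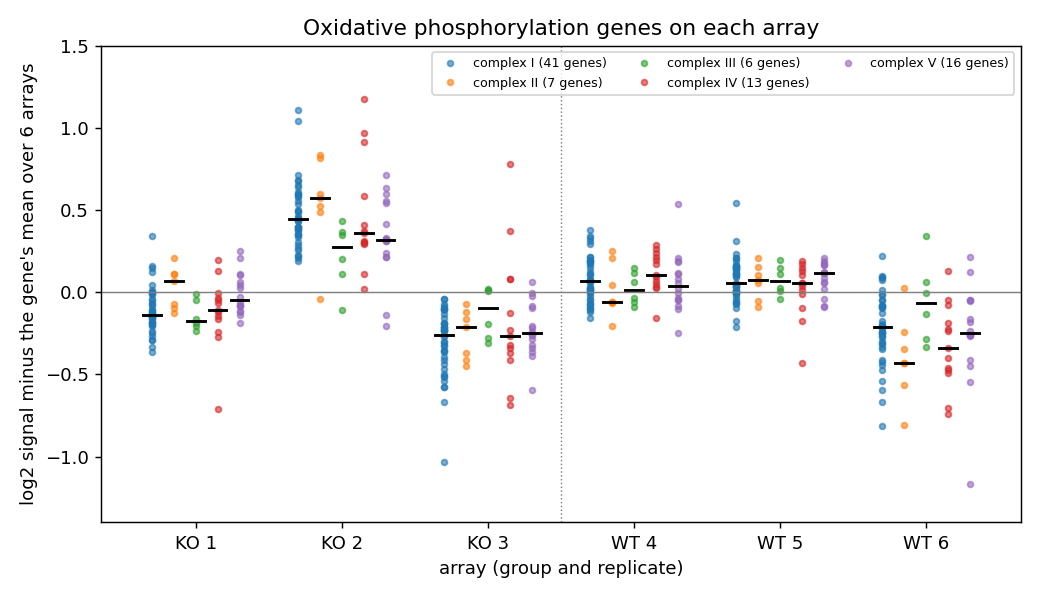
Deviation of each of the 83 member genes from its own mean over the 6 arrays, in log2 units, on the 3 KO arrays (left) and the 3 WT arrays (right). Each point is a gene, colours mark the complex and black bars the median of a complex. KO 2 lies above 0 for nearly all genes, with a median of 0.40 over the members, and KO 3 and WT 6 lie below it, both with a median of -0.24.

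KO replicate 2 had the highest level of the 6 arrays for 73 of the 83 genes, or 88%, against 26.6% of all tested genes. Either KO replicate 3 or WT replicate 6 had the lowest level for 66 of the 83, or 79.5%, against 39.5%. The median deviation of the members from their own means was -0.11 on KO 1, 0.40 on KO 2 and -0.24 on KO 3. It was 0.06 on WT 4, 0.07 on WT 5 and -0.24 on WT 6. Over all tested genes these medians were between -0.01 and 0.04. KO 2 nevertheless stood apart outside the members too. It was the lowest array for 29.1% of all tested genes, and had the largest share of any array both as highest and as lowest. Its weight among limma's array weights, 0.364, was the lowest of the 6. The spread of the member genes between KO arrays was wide, with a larger SD in KO than in WT for 73 of 83 members, or 88%, against 66.4% of all tested genes. Whether it came from the animals or from the arrays was not tested. KO 2 exceeded the mean of KO 1 and KO 3 by a median of 0.57, while WT 6 differed from the mean of WT 4 and WT 5 by a median of -0.32. KO 3 and WT 6, with mean signals of 427.1 and 340.1, were the arrays of lowest mean signal before normalization. By median signal WT 6 was lowest at 107.3, followed by KO 2 at 109.9 and KO 3 at 114.9. The part of signal strength was not tested. KO 3 was also the array with the lowest neutrophil sum, 845.18, and the lowest proliferation sum, 10816. KO 2 was also the array with the highest macrophage and dendritic cell sum, 13247, with the highest B cell sum, 1270.7, and with the lowest sum of the 3 erythroid markers on the array, 371.23, against 430.78 to 2075.3 on the other arrays. The part of other cells in the values of both arrays was not tested. The 10 genes for which another array was highest were Ndufv1, Ndufaf1 and Ndufaf3 of complex I, Sdhaf2 of complex II, Uqcrh and Uqcrq of complex III, Cox4i1 and Cox6b2 of complex IV, and Atp5b and Atp5g3 of complex V.

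Complex I, the largest complex, was represented by 41 tested genes and moved as a block. The median difference was 0.06, with 27 genes positive and 14 negative, and values ranged from -0.21 for Ndufab1, the mitochondrial acyl carrier protein, to 0.33 for Ndufb9. KO 2 was highest for all 28 supernumerary subunits, those added to the core during evolution, and for 4 of the 5 catalytic core subunits. Ndufs3, a core subunit of the arm that reaches into the matrix, had levels of 11.43, 11.85 and 11.38 in KO and of 11.26, 11.41 and 11.17 in WT. KO 1 and KO 2 lay above all WT arrays and KO 3 just below WT 5, and the difference was 0.27 ± 0.22. Ndufb9, which belongs to the membrane arm, had levels of 8.74, 9.92 and 8.46 in KO and of 8.89, 9.19 and 8.06 in WT. Its groups overlapped, and the difference of 0.33 ± 0.43 was smaller than the SD of 0.77 among KO animals.

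Ndufa6, a subunit that binds the acyl carrier protein, read 11.93, 12.50 and 11.89 in KO and 12.07, 12.05 and 11.58 in WT. Ndufb7, a subunit on the intermembrane side, read 8.99, 9.75 and 8.71 in KO and 8.99, 9.15 and 8.62 in WT. For both genes KO 2 stood alone above the other arrays, and the differences were 0.21 ± 0.26 and 0.23 ± 0.30. The 7 tested complex I assembly factors, which build the complex and are not part of it, had differences from -0.06 to 0.09. The symbol rule also took in the pseudogene Ndufs5-ps, at 0.06, and Ndufa4, which is now known as a subunit of complex IV and is counted there. The one probe for Ndufs1, a core iron-sulfur subunit, was not detected on any array, and this measured nothing about the gene.

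**Figure D2:**
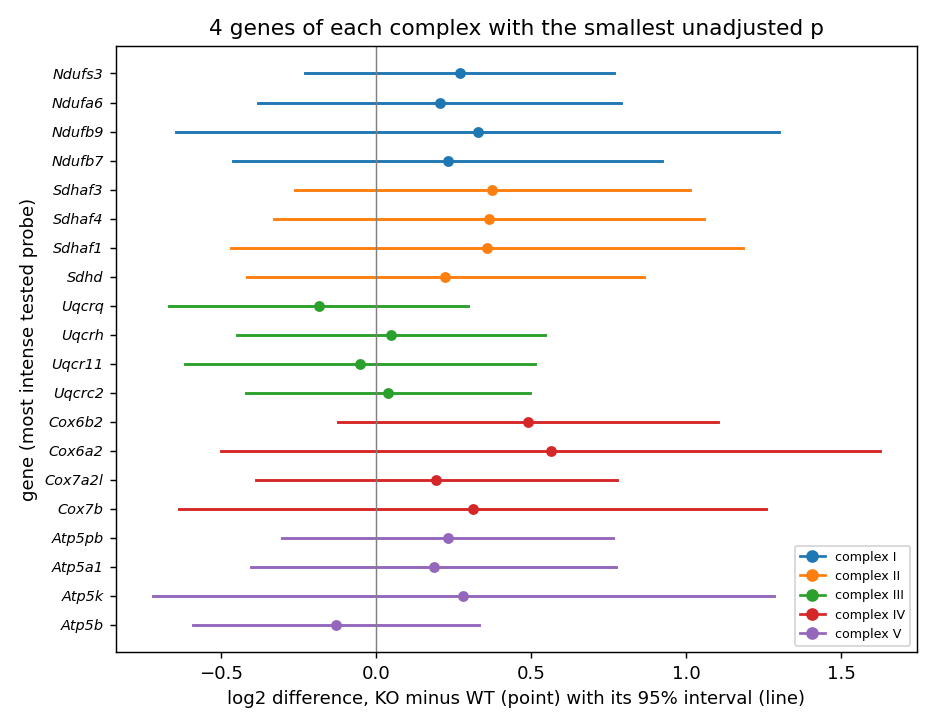
Log2 difference, KO minus WT, of the 4 genes of each complex with the smallest unadjusted p, with 95% intervals from limma. Points right of 0 mean higher in KO. All 20 intervals include 0, and those of Cox6a2, Ndufb9, Cox7b and Atp5k are the widest.

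Complex II had the most positive median difference, 0.22 over 7 genes, of which 6 were positive. Its highest values were those of assembly factors, each by its most intense probe. Sdhaf3, which like Sdhaf1 helps the iron-sulfur subunit Sdhb to mature, had levels of 7.64, 8.11 and 7.42 in KO and of 7.33, 7.75 and 6.97 in WT. Sdhaf4, which assists the flavin-bearing subunit, had levels of 8.92, 9.89 and 8.89 in KO and of 8.99, 9.0 and 8.62 in WT. Sdhaf1 had levels of 9.56, 10.44 and 9.42 in KO and of 9.84, 9.68 and 8.82 in WT. On all these probes KO 2 was highest and WT 6 lowest, and the groups overlapped. The differences were 0.38 ± 0.28 for Sdhaf3, 0.37 ± 0.30 for Sdhaf4 and 0.36 ± 0.36 for Sdhaf1, while Sdhaf2 gave -0.02. A second Sdhaf3 probe of similar level gave 0.0057 ± 0.27, with KO 3 lowest. The second Sdhaf1 probe gave 0.37 ± 0.36. Of the subunits, the membrane anchor Sdhd had levels of 8.78, 9.06 and 8.20 in KO and of 8.51, 8.72 and 8.14 in WT, a difference of 0.22 ± 0.28. The other anchor, Sdhc, gave 0.12 and the iron-sulfur subunit Sdhb gave 0.06. Without KO replicate 2 the median of the complex was 0.03. The probe for the catalytic subunit Sdha was not detected.

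Complex III had a median difference of -0.0015 over 6 genes, 3 of them positive, and varied least between animals, with a median SD of 0.25 in KO and 0.17 in WT. Uqcrq, a small subunit, had levels of 7.82, 7.90 and 8.03 in KO and of 7.92, 8.03 and 8.35 in WT, and was one of the genes in which KO 2 was not highest. Its difference was -0.18 ± 0.21, with WT 6 above the rest and the other arrays overlapping. The core protein Uqcrc2 had levels of 12.52, 12.89 and 12.70 in KO and of 12.63, 12.69 and 12.68 in WT, a difference of 0.04 ± 0.20. Uqcr11, another small subunit, had levels of 12.34, 12.98 and 12.23 in KO and of 12.60, 12.50 and 12.61 in WT. Its difference was -0.05 ± 0.25. Uqcrh, the hinge protein at the docking site of cytochrome c, had levels of 13.69, 13.85 and 13.75 in KO. In WT it had 13.86, 13.89 and 13.41, and its difference was 0.05 ± 0.22. The signs of these last 3 genes changed with single arrays left out. Neither probe for the Rieske subunit Uqcrfs1 was detected.

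Complex IV, cytochrome c oxidase, had a median difference of 0.07 over 13 genes, and its highest 2 values were those of tissue-restricted isoforms. The lowest, -0.11, was that of Cox5a, a general subunit. Cox6b2, the testis form of subunit 6b, had levels of 6.42, 6.50 and 7.27 in KO and of 6.33, 6.31 and 6.08 in WT. All KO arrays lay above all WT arrays, and KO 3, not KO 2, was highest. The difference of 0.49 ± 0.27 had the smallest unadjusted p of all members in limma's test, 0.104, and was 0.22 without KO replicate 3. The second Cox6b2 probe was not detected. Its general counterpart Cox6b1 gave -0.05 on its most intense probe.

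Cox6a2, the form of heart and skeletal muscle, had levels of 5.93, 7.82 and 7.01 in KO and of 6.93, 6.21 and 5.93 in WT. It was detected on all 6 arrays, and the groups overlapped, with KO 1 as low as WT 6. Both Cox6a2 and Cox6b2 were dim, with mean levels in the dimmest quartile of tested genes, which ended at 7.07. Before normalization Cox6a2 had a signal of 188.79 on KO 1 and 130.1 on WT 6. The median signals of those arrays were 134.6 and 107.3. The difference was 0.56 ± 0.47, and it was 1.05 without KO replicate 1 and 0.11 without KO replicate 2. Its general counterpart Cox6a1 gave 0.01 on its most intense probe. Cox7a1, the form of muscle and brown fat, had levels of 6.83, 7.66 and 6.95 in KO and of 7.34, 7.06 and 6.60 in WT, a difference of 0.15 ± 0.30, and its general counterpart Cox7a2 gave 0.17 ± 0.40. All 4 muscle markers and all 4 brown fat or adipocyte markers on the array were detected on too few arrays to be tested. The probes for Cox4i2, Cox7b2, Cox8b and Cox8c, further forms restricted to lung, testis or muscle, were detected on no array. Cox4i1, the general form of subunit 4, had levels of 13.30, 13.69 and 13.65 in KO and of 13.62, 13.48 and 13.70 in WT, a difference of -0.05.

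Among the other complex IV genes, Cox7b, a small subunit encoded on the X chromosome, had levels of 7.02, 7.74 and 6.18 in KO and of 7.04, 6.88 and 6.09 in WT. KO 2 was highest, and KO 3 and WT 6 stood apart below the rest in this gene. The difference was 0.31 ± 0.41. Cox7a2l, which joins complexes III and IV into supercomplexes, had levels of 12.27, 12.80 and 12.51 in KO and of 12.46, 12.60 and 11.94 in WT, a difference of 0.19 ± 0.26. The 9 general subunits together had a median of -0.04, with 4 positive and 5 negative.

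Complex V had a median difference of 0.08 over 16 genes, 10 of them positive. Atp5b, the catalytic beta subunit, had levels of 14.75, 14.44 and 14.55 in KO and of 14.83, 14.71 and 14.60 in WT, and here KO 2 was the lowest array. The difference was -0.13 ± 0.20. Atp5pb, a subunit of the stalk that holds the catalytic head in place, had levels of 11.20, 11.67 and 11.26 in KO and of 11.01, 11.43 and 11 in WT. Each KO array was above WT 4 and WT 6, and WT 5 was above KO 1 and KO 3. The difference was 0.23 ± 0.23. Atp5k, a small membrane subunit, had levels of 5.59, 6.41 and 5.75 in KO and of 6.31, 5.98 and 4.61 in WT. Its probe was detected on 5 of 6 arrays, and the difference was 0.28 ± 0.44, or -0.24 without WT replicate 6. The 2 measured paralogues of the proton-carrying c subunit, Atp5g2 and Atp5g3, gave 0.09 and -0.02. The 5 genes of the F1 part, Atp5a1, Atp5b, Atp5c1, Atp5d and Atp5e, had a median of 0.14. They ran from -0.13 for Atp5b to 0.19 for Atp5a1. The 11 genes of the membrane part and of the stalk that holds the head had a median of 0.01, and ran from -0.07 to 0.28.

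Several genes were read by more than 1 probe, and in some the probes did not give the same picture. Of 26 such member genes, 17 had differences of 1 sign on all tested probes and 9 of both signs, in 2 of which a difference exceeded 0.3 in size. For Atp5a1, the catalytic alpha subunit, the most intense probe had levels of 11.08, 11.14 and 10.55 in KO and of 10.94, 10.88 and 10.38 in WT, a difference of 0.19 ± 0.26. The other had levels of 7.61, 6.78 and 7.26 in KO and of 7.74, 7.79 and 7.26 in WT, a difference of -0.38 ± 0.27, with KO 2 lowest in place of highest. For Ndufv3, a supernumerary subunit of complex I, a dim probe had levels of 6.27, 7.0 and 6.43 in KO and of 6.27, 6.22 and 5.94 in WT. Its groups did not overlap, though KO 1 and WT 4 were equal to the decimals given, and its difference was 0.43 ± 0.25. The other Ndufv3 probes gave -0.09 ± 0.24 and 0.07 ± 0.25.

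**Figure D3:**
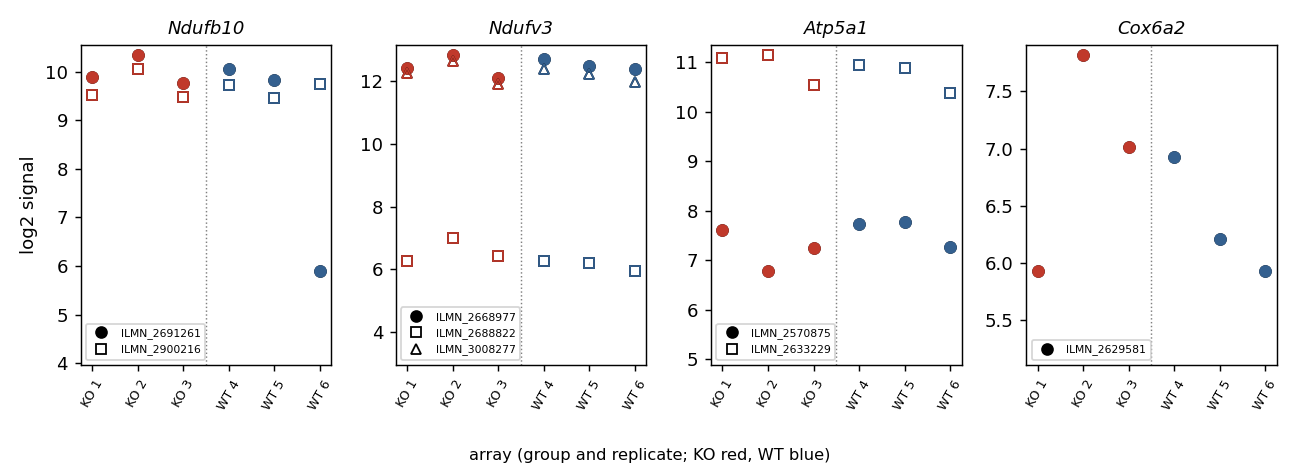
Log2 level on each array of every tested probe of Ndufb10, Ndufv3, Atp5a1 and Cox6a2, with KO arrays in red at the left of each panel and WT arrays in blue at the right. Each symbol shape is a probe. One Ndufb10 probe is at 5.89 on WT 6 and at 9.76 to 10.34 on the other 5 arrays.

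The largest difference among all member probes belonged to Ndufb10, a subunit of the membrane arm of complex I at chr17:24722060-24724423 in build GRCm38.p6. It was chosen after its values were seen. One of its probes had levels of 9.89, 10.34 and 9.76 in KO and of 10.05, 9.84 and 5.89 in WT, a difference of 1.40 ± 0.95. The 5 other arrays lay together and WT 6 was 3.87 below the next lowest, the gap of rank 3 in size among the 14651 tested probes with 1 array below the rest. Without WT replicate 6 the difference was 0.05. The second Ndufb10 probe had levels of 9.52, 10.05 and 9.48 in KO and of 9.73, 9.45 and 9.76 in WT, a difference of 0.04 ± 0.23, and WT 6 was no exception on it.

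The same count was made for genes that work beside the members. Mitochondrial ribosomal proteins, which translate the mitochondrially encoded subunits, followed it closely, with KO 2 highest for 62 of 72 genes and a median difference of 0.04. Proteasome subunits did so in 25 of 33 genes and cytosolic ribosomal proteins in 35 of 53. Of the respiratory chain genes outside the symbol rule, such as cytochrome c, KO 2 was highest for 7 of 11, and of TCA cycle genes for 9 of 14. By contrast it was highest for 6 of 16 glycolytic genes and for 3 of 16 regulators of mitochondrial biogenesis. No gene of these lists passed an adjusted p of 0.05 in limma's test. Those with the smallest p among the ribosomal proteins of mitochondria were Mrpl24 at 0.26, Mrpl43 at 0.24, Mrpl37 at -0.23 and Mrpl34 at 0.26. Among cytosolic ribosomal proteins they were Rps15a at -0.73, Rpl22l1 at 0.57, Rps25 at 0.31 and Rpl12 at 0.24. Among proteasome subunits they were Psmd5 at 0.32, Psmb9 (an immunoproteasome subunit) at 0.32, Psmd12 at 0.22 and Psmd6 at 0.21. In the TCA cycle Dld gave 0.27, Dlst -0.15, Idh3b 0.12 and Ogdh -0.13, and in glycolysis Ldhb gave -0.57, Eno2 0.45, Eno3 0.35 and Tpi1 -0.42. Of the respiratory chain genes outside the rule, Hccs, which attaches haem to cytochrome c, gave -0.41, Higd2a 0.22, Etfdh 0.14 and Aifm1 -0.10. All of these are log2 differences, KO minus WT.

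**Figure D4:**
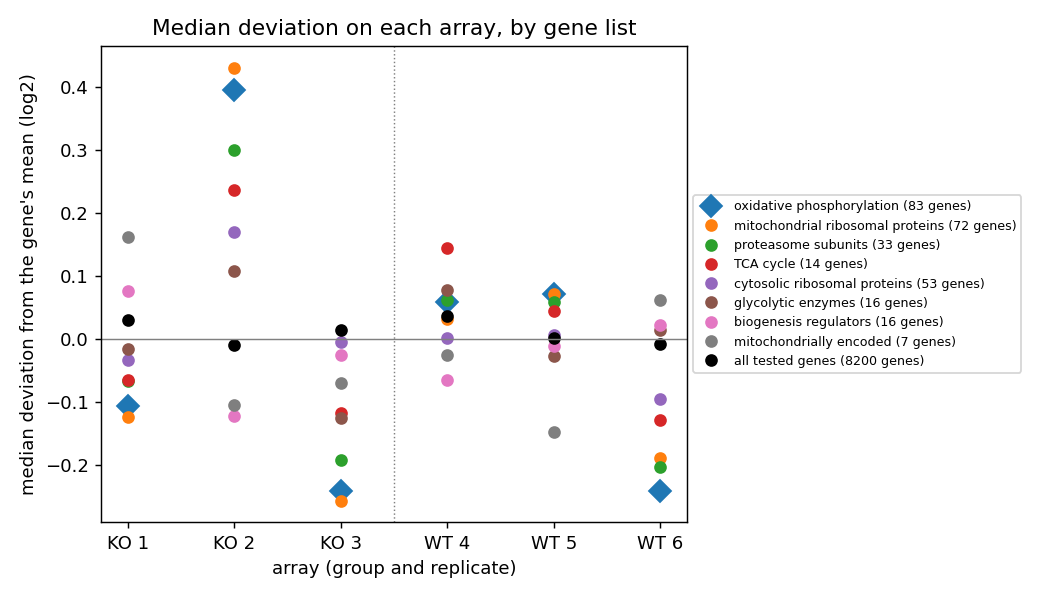
Median deviation of each gene list from the genes' own means over the 6 arrays, in log2 units, on the 3 KO arrays (left) and the 3 WT arrays (right). Diamonds are the oxidative phosphorylation genes. Mitochondrial ribosomal proteins are at 0.43 on KO 2, where the members are at 0.40, whereas the mitochondrially encoded genes are at -0.10 there.

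The subunits encoded in mitochondrial DNA did not follow the nuclear ones. Among the 7 measured, KO 2 was highest for 0 and KO 1 for 5. Their median deviation was 0.16 on KO 1, -0.10 on KO 2 and -0.07 on KO 3. It was -0.02, -0.15 and 0.06 on WT 4, WT 5 and WT 6. Some of them were very intense, with mean KO levels of 15.29 for CYTB, 15.08 for ND4 and 14.26 for ND1. KO 2 was the lowest array for CYTB and ND4, the only 2 of the 7 for which it was, and ND1 was lowest on KO 3. The most intense nuclear members, Atp5b at 14.58 and Atp5g3 at 14.36, had KO 2 lowest. In Ndufa13 at 13.79 and Atp5j2 at 13.68 KO 2 was highest. The part of signal intensity in this contrast was not tested. COX2, a catalytic subunit of complex IV, had levels of 14.03, 13.80 and 13.62 in KO and of 13.70, 13.56 and 13.55 in WT, a difference of 0.21 ± 0.21. ATP6, the membrane channel subunit of complex V, gave 0.16 ± 0.19 and ND5, a proton-pumping subunit of complex I, -0.29 ± 0.33. ND4L, a small membrane subunit of complex I, had levels of 8.96, 7.67 and 8.40 in KO and of 6.27, 7.66 and 7.76 in WT. Its difference was 1.11 ± 0.46, with KO 2 level with WT 5 and below WT 6, and its unadjusted p was 0.0398 in limma's test and its adjusted p 0.998.

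Of the regulators, Pprc1, a coactivator of NRF1, had levels of 8.80, 8.81 and 8.46 in KO and of 9.22, 8.91 and 9.20 in WT, a difference of -0.42 ± 0.21. Gabpa, the DNA-binding subunit of GABP, had levels of 7.27, 6.82 and 7.07 in KO and of 7.33, 7.45 and 7.43 in WT, a difference of -0.35 ± 0.21. For both genes all KO arrays lay below all WT arrays, and neither passed the adjusted threshold. Polg2, the accessory subunit of the mitochondrial DNA polymerase, gave 0.26 ± 0.24, and Mterf1a, a mitochondrial transcription termination factor, 0.19 ± 0.20. In Mterf1a all KO arrays lay above all WT arrays. Of the 16 tested regulators, the groups thus did not overlap in 2 with KO lower and in 1 with KO higher. Together these were 18.8%, against 8% of all tested genes. Of the 28 tested assembly factors outside the symbol rule, Timmdc1, which builds complex I, had levels of 7.80, 8.94 and 8.86 in KO and of 7.77, 7.60 and 8.02 in WT. Its difference was 0.74 ± 0.32, with KO 1 inside the WT range, and the unadjusted p of 0.0492 in limma's test did not survive adjustment. Tmem126b, also of complex I, gave 0.53 ± 0.27, and the complex IV factors Cox20 and Surf1 gave 0.54 ± 0.28 and 0.39 ± 0.25. All KO arrays lay above all WT arrays in 2 of these assembly factors, Tmem126b among them, or 7.14%, and below them in 0.

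Gene size moved with the array pattern. Gene span here is the length from start to end in the RefSeq annotation, introns included. Member genes had a median span of 7394 bases, against 21145.5 over the tested genes, and 56 of the 83 fell in the shortest quartile. Among all tested genes, KO 2 was highest for 47% of the shortest quartile and for 29.1%, 18.7% and 11.8% of the following ones. Within each quartile this share was larger among members than among the other genes, and the part of gene span in the pattern was not tested. KO 2 was highest for 47 of 56 members in the shortest quartile, or 83.9%, against 46% of the other genes there. In the second it was highest for 15 of 15 members and 28.6% of other genes, in the third for 7 of 8 and 18.4%, and in the longest for 4 of 4 and 11.6%. Split by mean signal, the share over all genes was 24.2% in the dimmest quartile and 28.8% in the brightest. Among genes both in the shortest and in the brightest quartile, KO 2 was highest for 31 of 36 members, or 86.1%, against 52.5% of 592 other genes. The arrays are the same 6 throughout and the genes are not independent of each other, so these shares describe these arrays and carry no test.

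**Figure D5:**
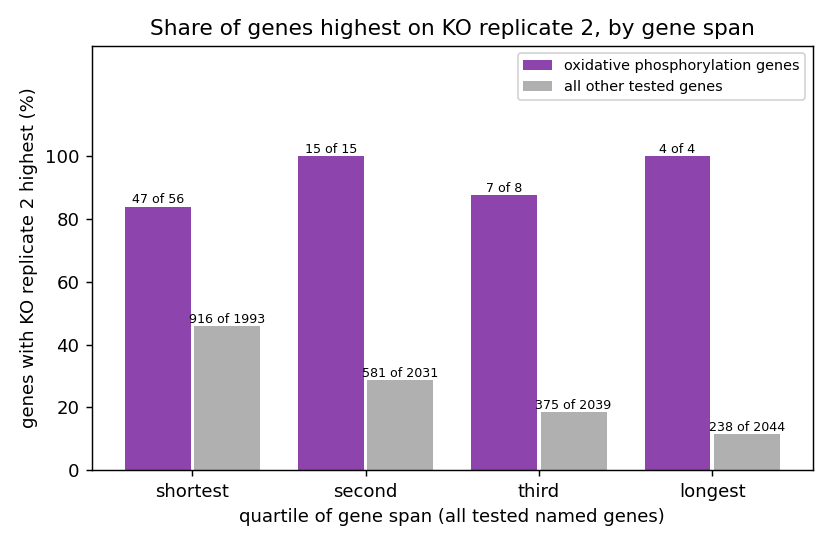
Percentage of genes whose highest level was on KO replicate 2, by quartile of gene span, for member genes (left bar of each pair) and all other tested genes (right bar). Labels give the counts. Among other genes the share goes down with span, at 46% in the shortest quartile and 11.6% in the longest, and among members it is at least 83.9% in every quartile.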

How the data were processed

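Thymus RNA of 3 KO and 3 WT mice was amplified from 100 ng and read on Illumina mouse bead arrays, per the labels' protocols. The deposited probe signals are intensity values on a linear scale, not normalized between arrays, each with a detection p-value, per the file headers. BeadStudio 3.1.3 is named in the submitters' processing notes. A deposited table of the authors' processed intensities, of unstated scale, served as an alternative. Groups came from the sample titles, which give KO and WT no shared replicate number. A second header line numbers the arrays, with unstated meaning, and arrays of neighbouring numbers formed 3 pairs of 1 KO and 1 WT array. Deviations from the group means correlated within these pairs at 0.128, 0.164 and 0.518. With the pair as a block, 2 probes passed the adjusted threshold in all, against 4 without, and 0 member probes passed either way.

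From the deposited signals, background was estimated from the detection p-values, arrays were quantile normalized and log2 values taken with an offset of 16 (neqc of limma 3.58.1, R 4.3.3). The 14651 probes with detection p under 0.01 on 3 or more arrays were tested with lmFit and eBayes, two-sided, with Benjamini-Hochberg adjustment over all of them, on 4 residual and 4.51 prior degrees of freedom. Values after ± are standard errors of a difference, with n = 3 each. The number of arrays limits the precision. A gene was taken by its most intense tested probe. Symbols came from the platform annotation, where 34885 probes had 1 symbol, 18 several and 10378 none, and coordinates and promoters from RefSeq GRCm38.p6. The fit was tested on simulated data for all 14651 probes, where it called 23% of changes of 1 log2 unit and 93% of changes of 3. It also made 6 false calls. The simulated noise was independent between probes, so variation shared by many genes on an array, as seen in the members, was not simulated.

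Members and lists were chosen with earlier results of these data known. Levels on every array are given for Trim28, for the 4 genes of each complex with the smallest p, and for tested tissue-restricted isoforms of complex IV. They are also given for at least 1 probe of the genes whose probes have differences of opposite sign with 1 over 0.3 in size. For up to 4 genes of each other list the difference is given, with levels for some of them. Medians and counts over members are descriptions with no test.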

Additional observations from a re-analysis of the deposited data

How the results depend on the processing

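The count of member probes past the adjusted threshold was 0 under every alternative run. That at an unadjusted p under 0.05 was 0 with all arrays and ran from 0 to 1 with an array left out, being Cox6a2 without KO replicate 1 and Ndufab1 without KO replicate 2. The number of probes past the threshold in all, 4, was 2 without background correction, 2 with arrays of neighbouring header numbers as a block, 1 without a filter on dim probes, and 0 for the 4 arrays of the first cohort of header numbers alone, an alternative chosen after seeing the data. With an array left out it ran from 0 to 1. The share of member genes with a positive difference, 65.1%, was 78.3% with median scaling, 78.3% in the first cohort alone and 21.7% with array weights, and ran from 18.1% to 90.4% with an array left out. The median difference of member genes ran from -0.12 to 0.20 with an array left out, and was -0.08 with array weights. KO replicate 2 was highest for 71 to 77 genes over the settings that changed the values or the filter.

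Of the single genes, some changed sign with array weights, at -0.13 for Ndufb9, -0.024 for Ndufb7, -0.073 for Uqcrh, -0.041 for Uqcrc2, -0.043 for Cox7a2l and -0.090 for Atp5k. In the first cohort alone Uqcrh was at -0.10, Uqcr11 at 0.11 and Atp5k at -0.16, and with median scaling Uqcr11 was at 0.0058. With an array left out, Ndufb9 ran from -0.11 to 0.62, Ndufb7 from -0.070 to 0.45, Uqcrh from -0.11 to 0.13, Uqcr11 from -0.27 to 0.089, Uqcrc2 from -0.054 to 0.13, Cox7a2l from -0.0029 to 0.33, Cox7b from -0.068 to 0.72 and Atp5k from -0.24 to 0.61. The cause of these changes was not tested. The labels give KO and WT no replicate number in common, so the only pairing that could be tried was that of neighbouring header numbers, as a replicate block. Beside the count of probes past the threshold in all, it changed no call. Signal over background limits what could be read for the 26 member probes detected on no array.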
